A study of Mus musculus with 6 samples.

Results

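The genes described here supply the sugars of liver glycans and carry them to where glycans are built. They are the enzymes that make and salvage nucleotide sugars, and the nucleotide sugar transporters of the SLC35 family. A list of 45 genes was drawn up by name, without the enzymes from UDP-glucose to UDP-xylose and without those of the hexosamine pathway. Of the 45, 38 were measured on the array, among 909 named genes. Hk2, Hk3, Galm, Fcsk, Nanp, Amdhd2 and Slc17a5 were not analysed here. Where a gene had several probe sets, the brightest over the 6 arrays stands for it.

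Liver RNA came from wildtype male mice, labelled healthy, and diabetic male mice, with 3 samples per group. The series title calls the diabetes insulin-deficient. The labels do not say that each sample is a separate animal. Each array held 1 sample, named by its group and replicate number. How the diabetes was brought about, the strain and the age are not given by the labels, and no allele or agent is named for either group. The values are log2 signals, so a difference of 1 is a factor of 2 between groups.

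A glycosyltransferase cannot use a free sugar. Most sugars are first phosphorylated and then joined to a nucleotide, as UDP-galactose, GDP-mannose or GDP-fucose, mostly in the cytosol. Sialic acid is joined to its nucleotide, as CMP-sialic acid, in the nucleus. SLC35 proteins then exchange the nucleotide sugar for a nucleoside monophosphate across the membrane of the endoplasmic reticulum or the Golgi. Hepatocytes are heavy users of these donors, since most plasma glycoproteins are made in the liver, and the same hexose phosphates feed glycogen and glycolysis.

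No measured gene of the group passed the test between diabetic and wildtype liver. The test was limma's moderated linear model over all 1246 probe sets, with Benjamini-Hochberg adjustment and a threshold of 0.05. It called 0 of the 38 genes higher and 0 lower, where 0.321% of all probe sets were called, all of them higher. The smallest adjusted p among the 38 was 0.928. At an unadjusted p under 0.05 there was 1 gene, Pmm1, or 2.63%, against 2.97% of all probe sets. When limma also fitted the replicate number, as a block, it called 0 of the 38 and 0 of 1246, and 2 genes, Gmppb and Gnpda1, had an unadjusted p under 0.05, or 5.26% against 4.33%. Diabetic and wildtype arrays did not overlap for 1 of the 38, again Pmm1, or 2.63%, against 7.87% of all probe sets; by direction these were 0 higher and 1 lower, against 4.57% and 3.29%. Both shares at an unadjusted p lay close to those of the whole array, and the share without overlap lay below it.

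**Figure D1:**
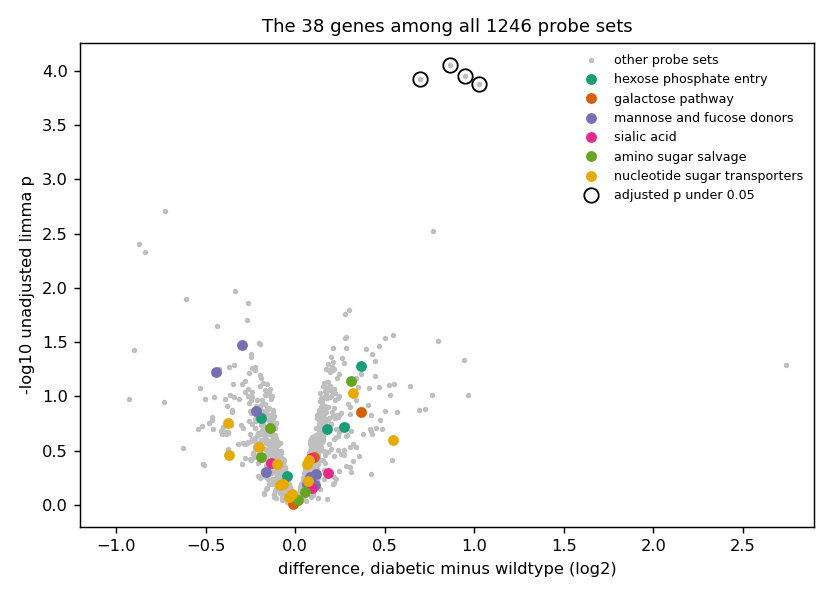
Each point is 1 probe set, with the difference of diabetic minus wildtype means (log2) on the x axis and the -log10 of the unadjusted limma p on the y axis; colours mark the 38 genes by role and open circles the 4 probe sets past the adjusted threshold. All coloured points lie among the grey ones and below the 4 circled probe sets.

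In direction the group was balanced. The mean was higher in diabetic liver for 20 genes and lower for 18, where 50.6% and 49.4% of all probe sets were, and for 19 and 19 after quantile normalization. Their median difference was 0.03, beside 0.00 over all probe sets. The differences ran from -0.44 for Gmppb to 0.55 for Slc35d2. The 95% confidence intervals of 36 of the 38 lay inside 1 on either side of 0, which leaves out Slc35d1 and Slc35d2. Over the whole array those of 1161 of 1246 probe sets did. Inside 0.5 lay those of 17 of the 38, a smaller share than the 890 of all 1246 probe sets. Without regard to sign the median difference was 0.126, beside 0.0868 over all probe sets, and the median SE was 0.155, beside 0.112. Changes by a factor of 2 were thus outside the error for most of these genes, while smaller changes were inside it for many. The mean signal of 33 of the 38 was above the array median; Galk2, Gmds, Npl, Slc35a5 and Slc35d3 were below it. No background level was measured, so how near these lay to background is not known.

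**Figure D2:**
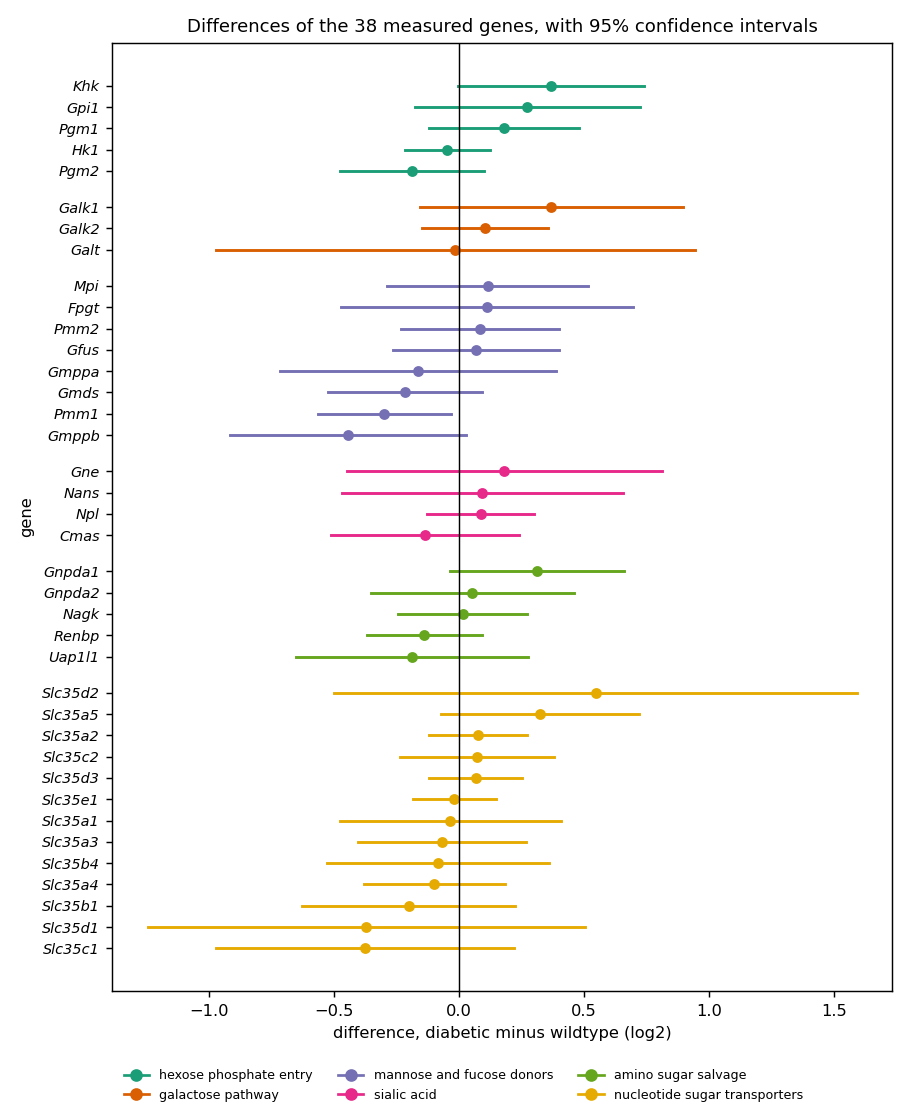
Points are differences of diabetic minus wildtype means (log2, n = 3 per group) and bars are 95% confidence intervals from limma, with genes on the y axis ordered by size within their role group. All bars but that of Pmm1 cross 0, and the widest are those of Slc35d2, at -0.50 to 1.59, Galt, at -0.97 to 0.94, and Slc35d1, at -1.24 to 0.50.

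The arrays themselves were alike in level, with medians between 4.93 and 5.06 over all probe sets. The mean over the 38 genes ran from 6.97 to 7.12 on diabetic arrays and from 6.93 to 7.07 on wildtype arrays, so the ranges overlapped. Wildtype 1 held the highest value for 12 of the 38 genes, and wildtype 3 the lowest for 10. Of 9 hepatocyte markers 6 were measured, all above the array median, with array means of 10.62 to 10.71 in diabetic and 10.45 to 10.72 in wildtype liver. Within that list Mbl2 passed the test, 2.04-fold higher in diabetic liver (limma adjusted p = 0.0412, and 0.142 with the replicate block), and Igfals was lower without overlap, by -0.61, without passing (limma adjusted p = 0.928). Macrophage markers, 6 of 10 measured, had array means of 6.36 on diabetic 3 and 6.17 on wildtype 3 and of 5.59 to 5.77 on the other arrays. In bulk liver, fewer cells of a type and less RNA per cell cannot be told apart. Igfbp1, a gene that insulin represses in the liver, was 10.65, 8.90 and 11.52 on diabetic arrays 1 to 3. On wildtype arrays 1 to 3 it was 6.26, 6.50 and 10.09, so wildtype 3 lay within the diabetic range. Its difference of 2.74 did not pass (limma adjusted p = 0.928). It came from a list of 8 insulin and fasting responsive genes, of which 5 were measured. Of these, 2 had higher and 3 lower means, and 0 passed (median difference -0.03).

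**Figure D3:**
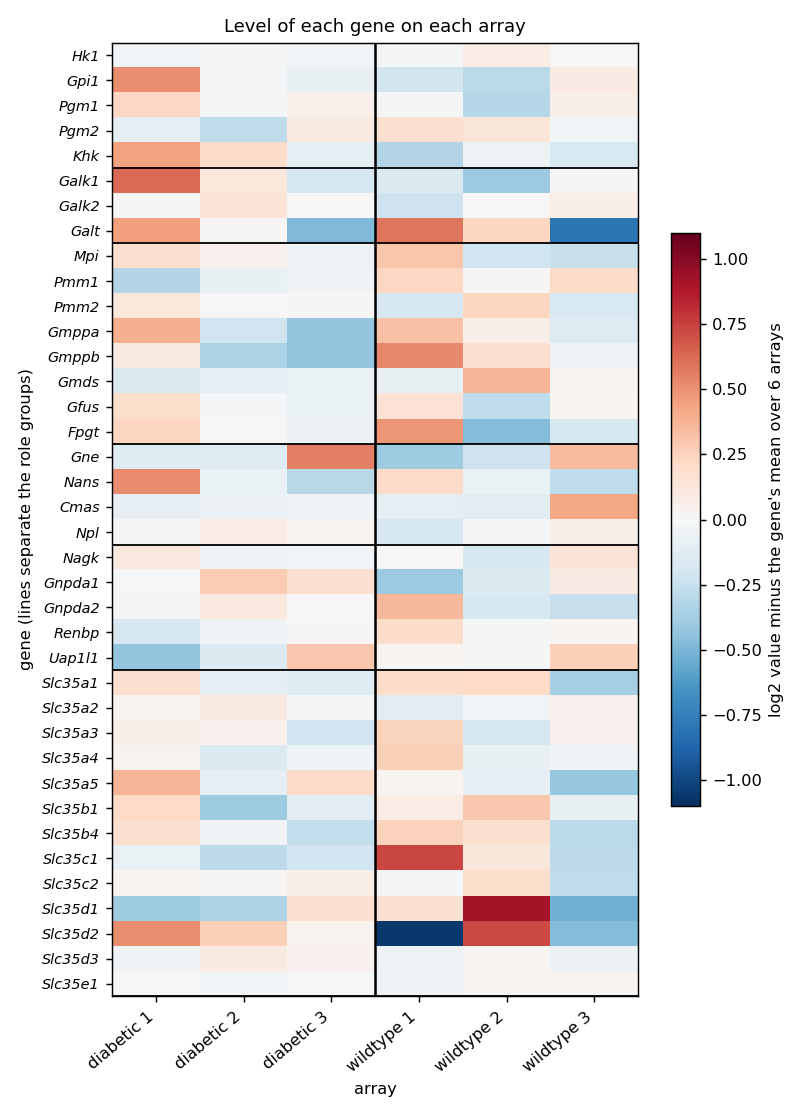
Rows are the 38 genes in their role groups and columns the 6 arrays; colour gives the log2 value minus that gene's mean over the arrays, red for higher and blue for lower. No block of colour separates the 3 diabetic columns from the 3 wildtype columns, and the deepest colours include those of Slc35d1 and Slc35d2 on wildtype arrays and of Galt on wildtype 3.

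The upstream sequence is shown for 3 enzyme genes that the values below turn on: Khk and Galk1, with the largest differences in the higher direction among the enzymes, and Pmm1, the 1 gene whose groups did not overlap. Each line gives the 250 bases before the gene's start (RefSeq, GRCm38.p6), on the gene's strand. Capitals mark CACGTG, an E-box, a core sequence that many basic helix-loop-helix factors recognise. It reads the same on both strands, and whether any factor binds it here was not tested.
Khk (chr5:30921309-30921558, plus strand): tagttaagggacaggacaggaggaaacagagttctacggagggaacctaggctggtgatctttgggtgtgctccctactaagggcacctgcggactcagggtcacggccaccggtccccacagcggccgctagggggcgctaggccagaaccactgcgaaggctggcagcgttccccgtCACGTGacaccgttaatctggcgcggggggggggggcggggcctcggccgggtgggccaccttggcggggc
Galk1 (chr11:116012720-116012969, minus strand): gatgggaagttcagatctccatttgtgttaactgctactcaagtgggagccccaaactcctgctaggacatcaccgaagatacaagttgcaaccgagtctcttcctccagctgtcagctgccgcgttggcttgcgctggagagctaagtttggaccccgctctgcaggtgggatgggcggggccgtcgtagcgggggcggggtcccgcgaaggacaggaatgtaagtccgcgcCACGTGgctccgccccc
Pmm1 (chr15:81960931-81961180, minus strand): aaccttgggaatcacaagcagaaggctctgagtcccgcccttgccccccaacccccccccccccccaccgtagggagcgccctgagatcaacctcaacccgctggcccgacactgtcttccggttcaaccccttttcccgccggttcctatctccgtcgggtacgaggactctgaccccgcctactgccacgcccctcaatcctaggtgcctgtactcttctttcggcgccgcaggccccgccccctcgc

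The E-box letters begin 71 bases before the start of Khk and 17 bases before that of Galk1, and they are not in the Pmm1 window. Promoters of 30 of the 38 genes were matched in the RefSeq table; Gfus, Slc35a4, Nans, Fpgt, Gnpda1, Slc35d2, Uap1l1 and Gmppb were not matched. Those of 5 genes hold CACGTG in the 250 bases (Galk1, Galt, Khk, Npl and Slc35a5), or 16.7% of 30, beside 8.26% of 678 other genes of the array and 6.86% of all 27025 genes with a promoter there. The differences of these 5 genes ran from -0.01 for Galt to 0.37 for Galk1, with a median of 0.32. Those of the 25 matched genes without the letters ran from -0.38 to 0.27, with a median of -0.04. Genes outside the matched 30 held the extremes of all 38, at 0.55 for Slc35d2 and -0.44 for Gmppb. These values thus do not cover the whole group, and a link between the letters and the differences was not tested. This is a description of letters and values, chosen after the values were seen and without a test.

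Genes of hexose phosphate entry stand at the branch between glycolysis, glycogen and nucleotide sugars. Of 7 listed, 5 were measured, 3 with higher and 2 with lower means, and 0 passed. Their median difference was 0.18, with 0.07 without wildtype 2 and 0.08 without diabetic 1, but -0.01 after quantile normalization, where Pgm1 turned from 0.18 to -0.02. Khk, ketohexokinase, which phosphorylates fructose on its way to the triose phosphates, was 12.23, 11.99 and 11.69 on diabetic arrays 1 to 3 and 11.46, 11.73 and 11.62 on wildtype arrays 1 to 3. The diabetic arrays were the higher ones of each number, but diabetic 3 lay below wildtype 2, so the groups overlapped. The Khk means were 11.97 ± 0.27 and 11.61 ± 0.13 (SD, n = 3 per group), 1.29-fold higher in diabetic liver, with a difference of 0.37 (SE 0.15, 95% confidence interval -0.01 to 0.74, limma adjusted p = 0.928). It was 0.23 without diabetic 1 and 0.51 without diabetic 3.

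Gpi1, which interconverts glucose 6-phosphate and fructose 6-phosphate, was 8.65, 8.11 and 8.05 on diabetic arrays and 7.93, 7.84 and 8.22 on wildtype arrays, in the order of their numbers. Diabetic 1 stood above all others, and without it the difference of 0.27 was 0.08. The probe sets of Gpi1, Renbp and Slc35a3 carry an s suffix and that of Gmppa an x suffix, which on Affymetrix arrays usually mark possible hybridisation to other transcripts; their meaning on this array is not given by the labels. Pgm1, phosphoglucomutase, which links glucose 6-phosphate to the glucose 1-phosphate used for UDP-glucose, was 10.49, 10.25 and 10.32 in diabetic and 10.25, 9.95 and 10.33 in wildtype liver. Wildtype 2 was its lowest array, and without it the difference was 0.07. Pgm2, which acts mainly on pentose phosphates, was 5.33, 5.16 and 5.54 in diabetic and 5.62, 5.57 and 5.41 in wildtype liver, a difference of -0.19 with overlapping groups, which was -0.10 without diabetic 2 and -0.29 without diabetic 3. Older mouse annotations use the symbols Pgm1 and Pgm2 the other way round. Hk1, a hexokinase that is minor in hepatocytes, differed by -0.05, and the 6 arrays lay between 5.13 and 5.25.

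In the galactose pathway, which turns dietary galactose into UDP-galactose, 3 of 4 genes were measured, 2 with higher and 1 with a lower mean, and 0 passed (median difference 0.10). The median was 0.05 without diabetic 2 and 0.28 without wildtype 1, with 0.23 without diabetic 3 and 0.16 without wildtype 3. Galk1, galactokinase, the entry step, was 8.83, 8.33 and 8.03 on diabetic arrays 1 to 3 and 8.05, 7.81 and 8.23 on wildtype arrays 1 to 3. Diabetic 1 and 2 lay above every wildtype array and diabetic 3 lay among them. The means were 8.40 ± 0.41 and 8.03 ± 0.21 (SD, n = 3), with a difference of 0.37 (SE 0.22, interval -0.16 to 0.89, limma adjusted p = 0.928), which was 0.15 without diabetic 1. Gpi1 and Galk1 both had their highest value on diabetic 1 and their lowest on wildtype 2.

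Galt, which exchanges galactose 1-phosphate into UDP-galactose, followed the replicate number and not the group. It was 5.75 and 5.88 on diabetic 1 and wildtype 1, 5.31 and 5.53 on the arrays numbered 2, and 4.80 and 4.49 on the arrays numbered 3. The group means of 5.29 ± 0.47 and 5.30 ± 0.72 (SD, n = 3) were nearly equal, with a difference of -0.01 and an interval of -0.97 to 0.94. Each number occurs once per group, so a level shared by number cannot move the difference of means, though it widens its error. Without wildtype 3 the Galt difference was -0.42 and without wildtype 1 it was 0.28. Galk2, which phosphorylates N-acetylgalactosamine, was 3.97, 4.11 and 3.95 in diabetic and 3.73, 3.96 and 4.03 in wildtype liver. Its groups overlapped, with a difference of 0.10.

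Among the enzymes, the 2 largest differences in the lower direction belonged to the mannose and fucose donor genes, Gmppb and Pmm1. Of 9 listed, 8 were measured, 4 with higher and 4 with lower means, and 0 passed (median difference -0.05, and -0.10 after quantile normalization). The median turned to 0.05 without diabetic 3. It was -0.12 without wildtype 3, -0.10 without diabetic 1, -0.09 without wildtype 2, -0.02 without wildtype 1 and -0.002 without diabetic 2. Pmm1, a phosphomannomutase, was 5.52, 5.76 and 5.81 on diabetic arrays 1 to 3 and 6.07, 5.85 and 6.06 on wildtype arrays 1 to 3. All diabetic arrays lay below all wildtype arrays, by as little as the gap between diabetic 3 and wildtype 2. The means were 5.696 ± 0.152 and 5.995 ± 0.122 (SD, n = 3), or 81.3% of the wildtype level, with a difference of -0.30 (SE 0.11, interval -0.57 to -0.03). Its unadjusted p of 0.0335 ranked 23 among 1246 probe sets and gave a limma adjusted p of 0.928. The difference ran from -0.37 without wildtype 2 to -0.21 without diabetic 1. Its paralog Pmm2, the enzyme whose loss causes the commonest congenital disorder of N-glycosylation, was 8.24, 8.12 and 8.13 in diabetic and 7.94, 8.36 and 7.95 in wildtype liver, a difference of 0.08 with overlapping groups.

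Gmppb, the catalytic subunit of the enzyme that makes GDP-mannose, was 7.67, 7.22 and 7.15 on diabetic arrays 1 to 3 and 8.10, 7.75 and 7.53 on wildtype arrays 1 to 3. Each diabetic array lay below the wildtype array of its number, by -0.43, -0.53 and -0.38, although diabetic 1 lay above wildtype 3 and the groups overlapped. All 3 same-number differences had 1 sign for 11 of the 38 genes, or 28.9%, against 26.1% of all probe sets. The Gmppb means were 7.35 ± 0.28 and 7.79 ± 0.29 (SD, n = 3), or 73.5% of the wildtype level, with a difference of -0.44 (SE 0.20, interval -0.91 to 0.03, limma adjusted p = 0.928). With the replicate block the unadjusted p went from 0.0602 to 0.00368 and its rank among 1246 from 53 to 10, and the limma adjusted p was 0.457. The difference was -0.61 without diabetic 1 and -0.29 without wildtype 1.

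Gmppa, the regulatory subunit of the same enzyme, was 8.23, 7.62 and 7.42 in diabetic and 8.16, 7.90 and 7.70 in wildtype liver, a difference of -0.16 (interval -0.72 to 0.39) that was -0.40 without diabetic 1 and 0.01 without diabetic 3. A second Gmppa probe set differed by -0.07. Both subunits were highest on the arrays numbered 1 and lowest on those numbered 3, in both groups. Mpi, which starts the path from fructose 6-phosphate to mannose 6-phosphate, differed by 0.11, and by 0.01 without wildtype 3 and 0.30 without wildtype 1.

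For the fucose branch, Gmds, the GDP-mannose dehydratase that opens it, was 4.50, 4.58 and 4.59 in diabetic and 4.59, 5.04 and 4.70 in wildtype liver. Its difference of -0.22 became -0.09 without wildtype 2, the highest array. Gfus, which completes GDP-fucose, was 8.49, 8.28 and 8.24 in diabetic and 8.47, 8.02 and 8.32 in wildtype liver, with means of 8.34 ± 0.14 and 8.27 ± 0.23 (SD, n = 3). Fpgt, of the fucose salvage route, differed by 0.11, ranging from -0.10 without wildtype 2 to 0.38 without wildtype 1. The Gfus difference of 0.07 likewise turned to -0.06 without wildtype 2, so neither sign was stable.

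**Figure D4:**
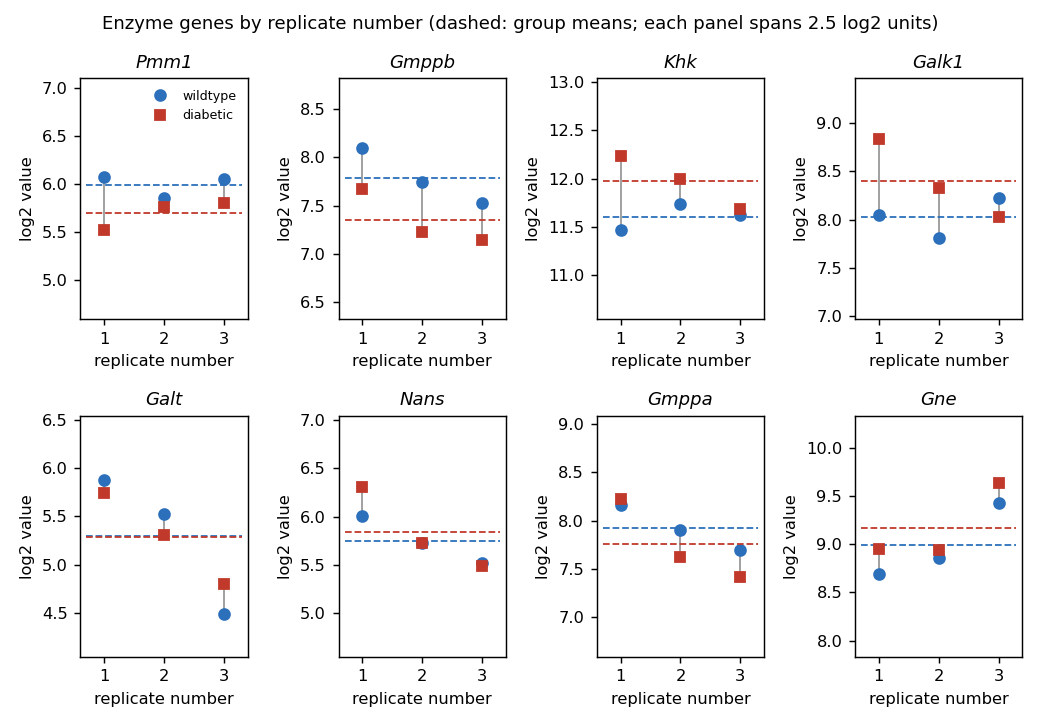
For 8 enzyme genes the log2 value is plotted against the replicate number, with circles for wildtype, squares for diabetic, grey lines joining arrays of the same number and dashed lines at the group means. Pmm1 and Gmppb squares lie below their circles at each number, Khk squares above theirs, and Galt, Nans, Gmppa and Gne change with the number in both groups.

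The sialic acid genes, from N-acetylmannosamine to CMP-sialic acid, gave 4 measured of 6, 3 with higher and 1 with a lower mean, and 0 passed (median difference 0.09). The median was -0.01 without diabetic 1, and 0.02 without diabetic 3 or without wildtype 1. Gne, the bifunctional enzyme that limits the rate of sialic acid synthesis, was 8.95, 8.94 and 9.63 on diabetic arrays and 8.69, 8.85 and 9.43 on wildtype arrays, in the order of their numbers. Both arrays numbered 3 were the highest of their group. Each diabetic array lay above the wildtype array of its number, by 0.26, 0.08 and 0.20, although the groups overlapped. The means were 9.17 ± 0.40 and 8.99 ± 0.39 (SD, n = 3), with a difference of 0.18 (interval -0.45 to 0.81, limma adjusted p = 0.975). It was -0.05 without diabetic 3 and 0.40 without wildtype 3, but each of these omissions leaves the number 3 in only 1 group. With the replicate block the unadjusted limma p went from 0.513 to 0.0804, and the limma adjusted p was 0.822. The 2 arrays numbered 3 carried the higher macrophage marker means given above. Their part in the Gne values was not tested. Of the 6 macrophage markers, Csf1r was 7.50 and 6.85 on diabetic 3 and wildtype 3 and 6.23 to 6.44 elsewhere, while the Kupffer cell marker Clec4f was 6.03 and 5.91 there and 5.71 to 6.07 elsewhere.

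Nans, the synthase that makes the 9-phosphate of sialic acid, was highest on the arrays numbered 1, at 6.31, 5.73 and 5.49 in diabetic and 6.01, 5.73 and 5.51 in wildtype liver. Within both groups Gmppa and Gmppb ordered the arrays in the same way. Its difference was 0.09, and -0.14 without diabetic 1. Cmas, which activates sialic acid to CMP-sialic acid, was 9.80, 9.83 and 9.84 in diabetic and 9.79, 9.78 and 10.32 in wildtype liver. Wildtype 3 alone stood apart, and without it the Cmas difference of -0.14 was 0.04. Npl, the lyase that breaks sialic acid down, was 4.43, 4.49 and 4.44 in diabetic and 4.23, 4.40 and 4.47 in wildtype liver, a dim signal with a difference of 0.09.

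Amino sugar salvage returns N-acetylglucosamine from degraded glycans to the hexosamine pool or to glycolysis. Of 6 genes 5 were measured, 3 with higher and 2 with lower means, and 0 passed (median difference 0.01). The median was -0.07 without wildtype 2, -0.06 without wildtype 3, -0.02 without diabetic 1 and 0.03 without diabetic 3. Gnpda1, a glucosamine 6-phosphate deaminase that sends amino sugars back to fructose 6-phosphate, was 6.98, 7.25 and 7.15 on diabetic arrays 1 to 3 and 6.57, 6.82 and 7.06 on wildtype arrays 1 to 3. Each diabetic array was above the wildtype array of its number, but wildtype 3 exceeded diabetic 1. The means were 7.13 ± 0.14 and 6.82 ± 0.24 (SD, n = 3), 1.24-fold higher in diabetic liver, with a difference of 0.31 (SE 0.14, interval -0.04 to 0.66). The limma adjusted p was 0.928, and 0.822 with the replicate block, where the unadjusted p was 0.0365. It was 0.19 without wildtype 1. Its paralog Gnpda2 differed by 0.05, and by 0.24 without wildtype 1.

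Nagk, the kinase that salvages N-acetylglucosamine, was 7.72, 7.57 and 7.59 in diabetic and 7.62, 7.44 and 7.77 in wildtype liver, a difference of 0.01 with an interval of -0.24 to 0.27. Renbp, which epimerises N-acetylglucosamine to N-acetylmannosamine, was 5.95, 6.07 and 6.14 in diabetic and 6.32, 6.11 and 6.14 in wildtype liver. Wildtype 2 lay just below diabetic 3, so the groups overlapped narrowly, and the difference of -0.14 was -0.07 without wildtype 1. Uap1l1, a relative of the UDP-N-acetylglucosamine pyrophosphorylase, was highest on the arrays numbered 3, at 6.14 and 6.11, as Gne was, and its difference of -0.19 was -0.02 without diabetic 1 and -0.39 without diabetic 3.

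All 13 listed SLC35 genes were measured, 5 with higher and 8 with lower means, and 0 passed (median difference -0.04, and -0.05 after quantile normalization). The median turned to 0.03 without wildtype 1 and 0.02 without diabetic 3. It was -0.12 without diabetic 1, -0.06 without wildtype 3, -0.01 without diabetic 2 and -0.01 without wildtype 2. Their spread differed widely, and in Slc35d1 and Slc35d2 the wildtype arrays lay far apart. Slc35d1, which brings UDP-glucuronic acid and UDP-N-acetylgalactosamine into the endoplasmic reticulum, was 7.88, 7.92 and 8.44 on diabetic arrays and 8.43, 9.18 and 7.74 on wildtype arrays. Wildtype 2 was the highest and wildtype 3 the lowest of all 6. The difference of -0.37 was -0.01 without wildtype 2 and -0.73 without wildtype 3. Its relative Slc35d2, a Golgi transporter of UDP-N-acetylglucosamine, was 8.84, 8.59 and 8.36 on diabetic arrays and 7.26, 9.05 and 7.84 on wildtype arrays. Its wildtype SD of 0.91 beside 0.24 in diabetic liver left the difference of 0.55 with an interval of -0.50 to 1.59, and it was 0.15 without wildtype 1 and 1.04 without wildtype 2.

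Slc35c1, the Golgi GDP-fucose transporter, was 7.70, 7.48 and 7.56 on diabetic arrays and 8.50, 7.89 and 7.48 on wildtype arrays. Wildtype 1 and 2 lay above all diabetic arrays, and wildtype 3 lay level with the lowest of them. The means were 7.58 ± 0.11 and 7.96 ± 0.51 (SD, n = 3), or 77.0% of the wildtype level, with a difference of -0.38 (SE 0.25, interval -0.97 to 0.22, limma adjusted p = 0.928), which ran from -0.11 without wildtype 1 to -0.62 without wildtype 3. Slc35c2, its relative linked to fucosylation of Notch, differed by 0.07, and by -0.05 without wildtype 3.

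Among the UDP-sugar and CMP-sialic acid carriers, Slc35a1, the CMP-sialic acid transporter, was 8.27, 7.99 and 7.96 in diabetic and 8.30, 8.31 and 7.73 in wildtype liver. Its difference of -0.04 was -0.23 without wildtype 3 and 0.06 without wildtype 2, so its sign was not stable. Slc35a2, the UDP-galactose transporter, was steady, between 7.56 and 7.78 on all 6 arrays, with a difference of 0.08 (interval -0.12 to 0.27) and of 0.00 at its other probe set. Slc35a3, which carries UDP-N-acetylglucosamine, differed by -0.07 and Slc35b4, which carries UDP-xylose and UDP-N-acetylglucosamine, by -0.08; each changed sign without at least 1 array. Slc35b4 was high on the arrays numbered 1, at 7.61 and 7.68, and low on those numbered 3, at 7.15 and 7.13, as Galt was.

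The remaining family members are less well characterised as sugar carriers. Slc35a5 was 5.35, 4.89 and 5.19 on diabetic arrays and 5.01, 4.89 and 4.56 on wildtype arrays, with means of 5.14 ± 0.23 and 4.82 ± 0.23 (SD, n = 3). Its difference of 0.32 (SE 0.16, interval -0.07 to 0.72, limma adjusted p = 0.928) ran from 0.20 without wildtype 3 to 0.45 without diabetic 2. Slc35b1, which exchanges ATP and ADP at the endoplasmic reticulum, was 10.27, 9.66 and 9.92 in diabetic and 10.13, 10.35 and 9.97 in wildtype liver; the difference of -0.20 was -0.06 without diabetic 2 and -0.36 without diabetic 1. Slc35a4 differed by -0.10, and by 0.01 without wildtype 1. Slc35e1 differed by -0.02, with all arrays between 6.27 and 6.34, and Slc35d3, a dim probe set at 3.02 to 3.18, by 0.07.

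**Figure D5:**
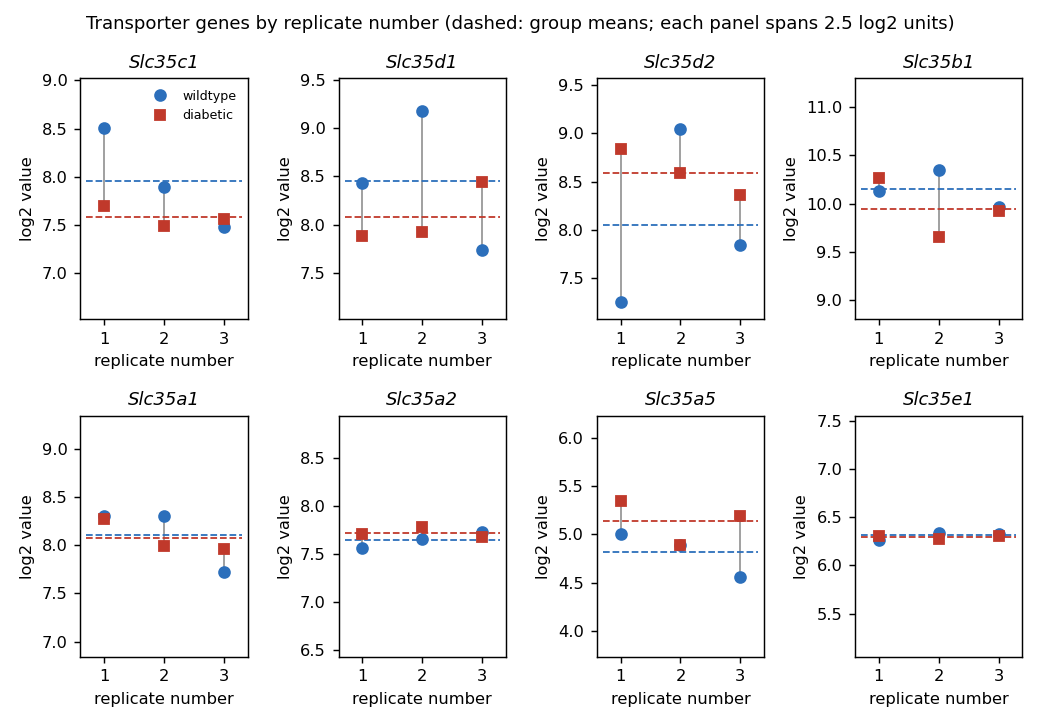
For 8 of the 13 transporter genes the log2 value is plotted against the replicate number, with circles for wildtype, squares for diabetic, grey lines joining arrays of the same number and dashed lines at the group means. Slc35d1 and Slc35d2 circles are spread widely, Slc35c1 circles lie above the squares at numbers 1 and 2, and Slc35a2 and Slc35e1 hardly vary.

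The genes next to these in the pathway were taken from a list of 15, of which 12 were measured: the left-out enzymes of UDP-glucose use and the hexosamine pathway, and other SLC35 genes. Of the 12, 8 had higher and 4 lower means, and 0 passed (median difference 0.05). Ugp2, which turns the product of Pgm1 into UDP-glucose, was 9.75, 9.53 and 9.32 on diabetic arrays and 9.06, 8.58 and 8.66 on wildtype arrays, with all diabetic arrays higher. Its difference of 0.77 (limma adjusted p = 0.619) stood beside 0.18 at Pgm1. The orphan family member Slc35f2 was 4.32, 4.27 and 4.90 in diabetic and 3.75, 4.09 and 4.02 in wildtype liver, higher by 0.54 on average (limma adjusted p = 0.928). Genes that take GDP-mannose and other donors onto dolichol, 4 of 8 measured, differed by between -0.06 for Alg5 and 0.06 for Dpm2, and 0 passed.

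Same-numbered arrays shared part of their deviations in these genes for numbers 1 and 3. Over the 38 genes, deviations from the group means correlated across genes at 0.33 between the arrays numbered 1, -0.04 between those numbered 2 and 0.27 between those numbered 3. Between arrays of unlike number these correlations ran from -0.33 to 0.15, the highest being diabetic 2 with wildtype 3. Deviations cancel out within each group, so a positive value for like numbers partly forces lower values for unlike ones. Genes are also not independent replicates. Leaving out 1 array changed the sign of the difference for 14 of the 38 genes in at least 1 of 6 cases, or 36.8%, against 48.2% of all probe sets.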

How the data were processed

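Expression of 6 liver RNA samples was measured on an Affymetrix glycan gene array, 1 sample per array. The deposited values were taken as log2 signals: per the submitters' processing notes RMA was used, a method of background correction, between-array normalization and probe summary, and they ran from 2.03 to 13.45. A shift common to most probe sets would thus have been removed. No source used here gives RMA's settings or a genome build. Of 1246 probe sets, 963 were named through their RefSeq accession (table of GRCm38.p6), giving 909 genes. No detection calls were used, and having 6 arrays limits the precision.

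Diabetic minus wildtype was fitted with limma 3.58.1 in R 4.3.3 on all probe sets (4 residual and 2.44 prior degrees of freedom), without a filter. The fit was tried on simulated data, which held no level shared by replicate number, unlike these arrays. The labels do not say that each array is a separate animal; otherwise p-values measure only the spread between these samples. Deviations of same-numbered arrays from their group means correlated over all probe sets at 0.397, 0.138 and 0.162. Between unlike numbers the correlations ran from -0.226 to 0.040. The main fit left the numbers out, and a fit with the number as a block was added as an alternative. The labels do not tell what a number stands for.

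The genes, lists and tests were chosen with earlier results of these data known. Values on every array are given for genes without overlap or with an unadjusted p under 0.05, for the 2 smallest p and the highest signal of each role group, and, chosen after the values were seen, for Gpi1, Pgm1, Galt, Pmm2, Gmppa, Gmds, Gne, Nans, Slc35a1, Slc35d1 and Slc35d2. Lists are described by counts and medians. Alternatives were a median shift, quantile normalization, omission of the dimmest 25% of probe sets, trend and robust moderation, array weights, the block, no moderation, a threshold of 0.1, all probe sets of a gene averaged, and omission of each array.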

Additional observations from a re-analysis of the deposited data

How the results depend on the processing

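The count of 0 called genes among the 38 was 0 under every alternative listed above, including each omission of 1 array, while limma gave 1 of them at an unadjusted p under 0.05 and 5 at most, without diabetic 3. Over the whole array the 4 called probe sets became 0 with the replicate block, 0 with trend and robust moderation and 0 without moderation, and between 0 and 1 when 1 array was left out; the cause was not tested, apart from fewer samples in the last case. The median difference of the 38 genes stayed between 0.003 and 0.04 in the fits with all 6 arrays and ran from -0.022 to 0.044 with 1 array left out. Quantile normalization and array weights each changed the sign of 1 gene, and leaving out 1 array that of 1 to 6. The block changed no call of these genes. Signal over background was not measured, and 3 arrays per group limit the precision.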
